A study of Homo sapiens with 4 samples.

Results

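The collagen genes were examined in RD cells, a human cell line derived from fusion-negative rhabdomyosarcoma, a tumour of cells of the skeletal muscle lineage. Members were the protein-coding genes of the GENCODE annotation (hg38) whose symbol reads COL, a number, A and a number, which gave 44 of 20033 protein-coding genes. They comprised 11 fibrillar collagens, 6 basement membrane collagens and 27 other collagens. Each was given a domain consisting of its gene body and 10 kb on each side, and every called peak that touched a domain by at least 1 bp was counted for that gene.

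Collagens are extracellular matrix proteins built from chains that wind into a triple helix. Fibrillar collagens assemble into the banded fibrils of tendon, skin, bone and the connective tissue around muscle fibres, whereas type IV collagens form the meshwork of basement membranes, the sheets on which muscle fibres, vessels and epithelia rest. The remaining collagens bind to fibril surfaces, form beaded filaments or small networks, anchor basement membranes to the tissue below, or span the cell membrane. Fibroblasts are the main source of fibrillar collagen in muscle, but myoblasts and tumours of the muscle lineage also transcribe collagen genes.

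The study asked how loss of SKP2, the substrate-recognition subunit of an SCF ubiquitin ligase, alters the chromatin of these cells. It mapped 2 features by chromatin immunoprecipitation and sequencing. MYOD is the transcription factor that specifies skeletal muscle and binds short DNA motifs called E-boxes, and H3K27ac is acetylation of lysine 27 of histone H3, a mark of active promoters and enhancers. One arm carried a lentiviral short hairpin RNA against SKP2 (shSKP2), and the control arm a scrambled hairpin (shSCR). RD cells of both arms were infected with the same type of vector, selected with puromycin and grown in the same serum-containing medium. The study describes a pair of SKP2 hairpins and names one of them for these libraries. Each of the 4 groups (shSKP2 H3K27ac, shSCR H3K27ac, shSKP2 MYOD and shSCR MYOD) held 1 library, so no difference between arms could be tested, and every comparison is between those libraries.

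The peak lists differed in size before any collagen was considered. On the main chromosomes there were 38457 H3K27ac peaks in shSKP2 cells against 25356 in shSCR cells, and 8457 MYOD peaks in shSKP2 cells against 5814 in shSCR cells. H3K27ac peaks covered 23.7 Mb in shSKP2 cells and 11.6 Mb in shSCR cells. Collagen domains took up 159 and 99 of the H3K27ac peaks of the shSKP2 and shSCR lists (0.413% and 0.390%), and 29 and 28 of their MYOD peaks (0.343% and 0.482%). The cells carried marks of the muscle lineage, with a MYOD peak at the same number of muscle marker genes, 7 of 9, in each arm, against 30.6% of all protein-coding genes in shSKP2 cells and 21.8% in shSCR cells. MYOD1 itself had a MYOD peak of 7.94-fold enrichment in shSKP2 cells and 8.43-fold in shSCR cells. Of the 9 muscle markers, 6 had more H3K27ac cover (the length of the domain under called peaks) in shSKP2 cells and 2 had less (66.7% and 22.2%). Among all protein-coding genes 66.7% had more and 3.92% had less. The ratio of summed cover in shSKP2 cells over that in shSCR cells was 1.70 for the muscle markers and 1.96 for all protein-coding genes. An H3K27ac peak was present at 70.1% of all protein-coding genes in shSKP2 cells and 60.1% in shSCR cells. Of 8 fibroblast markers, 2 carried one in shSKP2 cells and 2 in shSCR cells, with a summed cover of 1.22 kb and 1.17 kb. The fibroblast markers PDGFRA, FAP, LUM and DPT had no peak in any list. Among markers of other tissues, H3K27ac peaks were found in shSKP2 and shSCR cells at 2 and 2 of 4 endothelial markers (summed cover 5.08 kb and 3.73 kb). They were found at 3 and 3 of 4 epithelial markers (6.57 kb and 1.92 kb) and 4 and 3 of 5 cartilage and bone markers (16.3 kb and 10.00 kb). The endothelial peaks lay at CDH5 and TEK, and the epithelial peaks at EPCAM, CDH1 and KRT8. The cartilage and bone peaks lay at RUNX2, SP7 and MATN1 in both arms and at ACAN in shSKP2 cells alone. RUNX2 held most of the cartilage and bone cover in each arm, in 15 peaks in shSKP2 cells and 12 in shSCR cells. PECAM1, KDR, ESRP1 and SOX9 had no H3K27ac peak. The part of these markers in the collagen differences was not tested.

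Some of the strongest MYOD sites of the later sections are shown first with their sequence. They were picked by p-value and not by sequence. Each of those shown carries an E-box close to its summit, which does not hold for every collagen site. An E-box is any CANNTG, and MYOD is known to prefer the form CAGCTG, which reads the same on both strands, and the form CAGGTG, which reads as CACCTG on the other strand. Each sequence spans 101 bases of hg38 centred on the summit, on the plus strand, with every CANNTG in capitals. The first 6 are the strongest sites called in both arms (1 per gene, ranked by the p-value of the shSKP2 peak), the next pair was called in shSKP2 cells alone and the last pair in shSCR cells alone. Windows that overlapped an untranslated region were passed over.
COL5A1 (both arms, chr9:134645233-134645333): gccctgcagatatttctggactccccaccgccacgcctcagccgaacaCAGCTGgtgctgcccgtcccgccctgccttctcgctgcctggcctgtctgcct
COL15A1 (both arms, chr9:99050415-99050515): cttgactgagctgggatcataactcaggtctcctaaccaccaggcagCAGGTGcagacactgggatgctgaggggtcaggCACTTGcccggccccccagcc
COL19A1 (both arms, chr6:69914313-69914413): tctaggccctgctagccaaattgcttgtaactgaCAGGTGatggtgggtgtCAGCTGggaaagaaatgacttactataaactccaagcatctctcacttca
COL26A1 (both arms, chr7:101386877-101386977): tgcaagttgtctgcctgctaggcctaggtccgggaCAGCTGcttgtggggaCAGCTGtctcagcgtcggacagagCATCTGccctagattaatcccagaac
COL5A2 (both arms, chr2:189083243-189083343): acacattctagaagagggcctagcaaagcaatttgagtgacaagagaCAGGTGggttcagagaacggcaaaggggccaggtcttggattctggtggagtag
COL20A1 (both arms, chr20:63312774-63312874): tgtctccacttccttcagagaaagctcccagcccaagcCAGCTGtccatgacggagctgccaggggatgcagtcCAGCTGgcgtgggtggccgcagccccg
COL4A3 (shSKP2 alone, chr2:227228117-227228217): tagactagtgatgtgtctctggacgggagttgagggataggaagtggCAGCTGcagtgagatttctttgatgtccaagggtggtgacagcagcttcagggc
COL3A1 (shSKP2 alone, chr2:189020275-189020375): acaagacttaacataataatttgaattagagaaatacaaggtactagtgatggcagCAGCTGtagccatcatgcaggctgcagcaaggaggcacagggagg
COL25A1 (shSCR alone, chr4:109050064-109050164): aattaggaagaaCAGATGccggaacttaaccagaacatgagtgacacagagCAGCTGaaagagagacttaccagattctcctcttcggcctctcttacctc
COL4A2 (shSCR alone, chr13:110387769-110387869): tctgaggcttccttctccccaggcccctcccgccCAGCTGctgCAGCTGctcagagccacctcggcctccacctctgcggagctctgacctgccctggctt

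The 6 sites called in both arms each held at least 1 of the preferred forms. COL5A1 and COL5A2 each had a single E-box in the window, of the first form in COL5A1 and the second in COL5A2, and COL26A1 had 3. The 4 sites called in a single arm each held at least 1 CAGCTG, but these too were picked by p-value. In windows of 101 bases, a CANNTG was present at all 18 collagen peaks called in both arms, in each list. Of the collagen peaks called in a single arm, 6 of 11 in shSKP2 cells and 7 of 10 in shSCR cells held one. Over all MYOD peaks the shares were 86.1% and 87.6%. A CAGCTG was present at 11 and 12 of the 18, against 5 of 11 and 7 of 10. In the same windows it was present at 52.5% of all shSKP2 MYOD peaks and 56.2% of all shSCR MYOD peaks. Over all collagen peaks, 20 of 29 shSKP2 MYOD peaks had a CAGCTG no further than 100 bp from the summit (69.0%, Wilson 95% interval 50.8% to 82.7%) as did 19 of 28 shSCR MYOD peaks (67.9%, 49.3% to 82.1%). The share over all MYOD peaks was 60.7% in shSKP2 cells and 64.3% in shSCR cells, and in windows of the same length placed 2 kb away from those summits it was 8.93% and 9.06%. The second form, CAGGTG on either strand, was found at 27.6% (14.7% to 45.7%) of the shSKP2 and 21.4% (10.2% to 39.5%) of the shSCR collagen peaks, against 45.1% and 41.7% of all peaks and 20.6% and 20.7% of the windows 2 kb away. Both strands are covered by these spellings, a window may hold both forms, and each form is itself a CANNTG. An E-box of any spelling was present at 28 of 29 and 27 of 28 collagen peaks, but also in 66.1% and 66.7% of the windows 2 kb away. All intervals here and below cover counting error only.

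H3K27ac cover, the number of kilobases of a domain that lie under called peaks, was larger in shSKP2 cells than in shSCR cells at 30 of the 44 collagens (68.2%), smaller at 2 (4.55%) and equal at 12. The background was the same in kind: 66.7% of all protein-coding genes had more cover in shSKP2 cells and 3.92% had less. Median cover was 0.761 kb per collagen in shSKP2 cells and 0.0900 kb in shSCR cells, with a median difference of 0.495 kb, against 0.398 kb over all protein-coding genes. Summed over the collagens, cover was 84.9 kb in shSKP2 cells and 42.9 kb in shSCR cells, a ratio of 1.98, and over all protein-coding genes the ratio was 1.96. Taken over domains of every length, the relative gain in acetylated sequence at collagens was thus close to that over all genes. Collagen genes are long, with a median domain of 165 kb against 47.5 kb for all genes, which gives them more room for a peak. Among domains of 50 to 250 kb, 18 of 28 collagens had more cover and 2 had less, against 75.3% and 4.17% of 8295 genes in that range. The median difference there was 0.371 kb for collagens and 0.572 kb for all protein-coding genes, the reverse of the order over domains of every length. The ratio of summed cover was 1.80 for these collagens, also below that of all genes in the range. The counts depended on the length of the lists. With the H3K27ac lists shortened to equal length by peak score, 18 collagens (40.9%) had more cover in shSKP2 cells and 8 had less, against 57.4% and 9.09% of all genes.

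**Figure D1:**
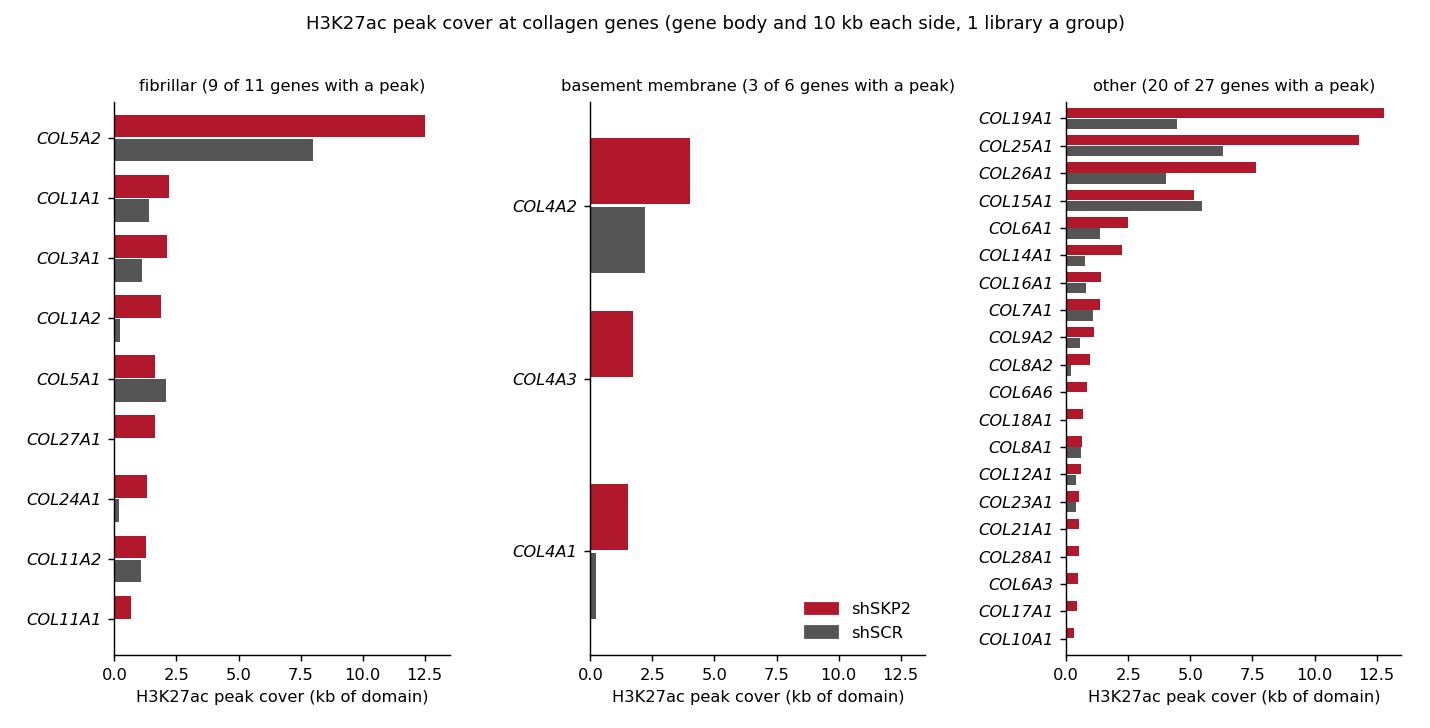
H3K27ac peak cover in kilobases for each collagen with an H3K27ac peak, by class, with the shSKP2 library (red) above the shSCR library (grey) for each gene. COL19A1, COL5A2 and COL25A1 had the longest shSKP2 bars (12.8, 12.5 and 11.8 kb), COL5A2, COL25A1 and COL15A1 the longest shSCR bars (7.98, 6.33 and 5.47 kb), and COL5A1 and COL15A1 were the genes whose shSKP2 bar was shorter.

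The cover was unevenly spread. COL5A2, COL19A1 and COL25A1 together held 37.1 of the 84.9 kb in shSKP2 cells (43.6%) and 18.8 of the 42.9 kb in shSCR cells (43.8%). Without them the remaining 41 collagens had 47.9 kb and 24.1 kb, a ratio of 1.99. At the other end, 10 of the 44 collagens had no peak in any of the lists, against 27.2% of all protein-coding genes, namely COL2A1, COL5A3, COL4A5, COL4A6, COL6A2, COL6A5, COL9A1, COL9A3, COL13A1 and COL22A1. A further 10 had H3K27ac peaks in shSKP2 cells alone (COL11A1, COL27A1, COL4A3, COL6A3, COL6A6, COL10A1, COL17A1, COL18A1, COL21A1 and COL28A1), 22 had them in both arms, and 0 had them in shSCR cells alone. Over all protein-coding genes these shares were 10.6% in shSKP2 cells alone, 59.5% in both arms and 0.589% in shSCR cells alone.

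The 3 classes differed in how many of their members were marked. An H3K27ac peak was present at 81.8% of fibrillar collagens in shSKP2 cells and 63.6% in shSCR cells, at 3 and 2 of 6 basement membrane collagens, and at 74.1% and 48.1% of the other collagens, beside 70.1% and 60.1% of all protein-coding genes. More cover in shSKP2 cells was found at 8 of 11 fibrillar, 3 of 6 basement membrane and 19 of 27 other collagens. Among all protein-coding genes 66.7% had more. The median difference was 0.797 kb, 0.651 kb and 0.426 kb in these classes, beside 0.398 kb over all protein-coding genes, whose median domain is shorter. Summed cover in shSKP2 cells over that in shSCR cells was 1.80 for fibrillar collagens (25.3 kb and 14.1 kb), 2.98 for basement membrane collagens (7.25 kb and 2.43 kb) and 1.99 for the others (52.4 kb and 26.4 kb). Over all protein-coding genes this ratio was 1.96. The basement membrane value rests on COL4A1, COL4A2 and COL4A3, since the other 3 members had no H3K27ac peak, and differences between the classes were not tested.

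**Figure D2:**
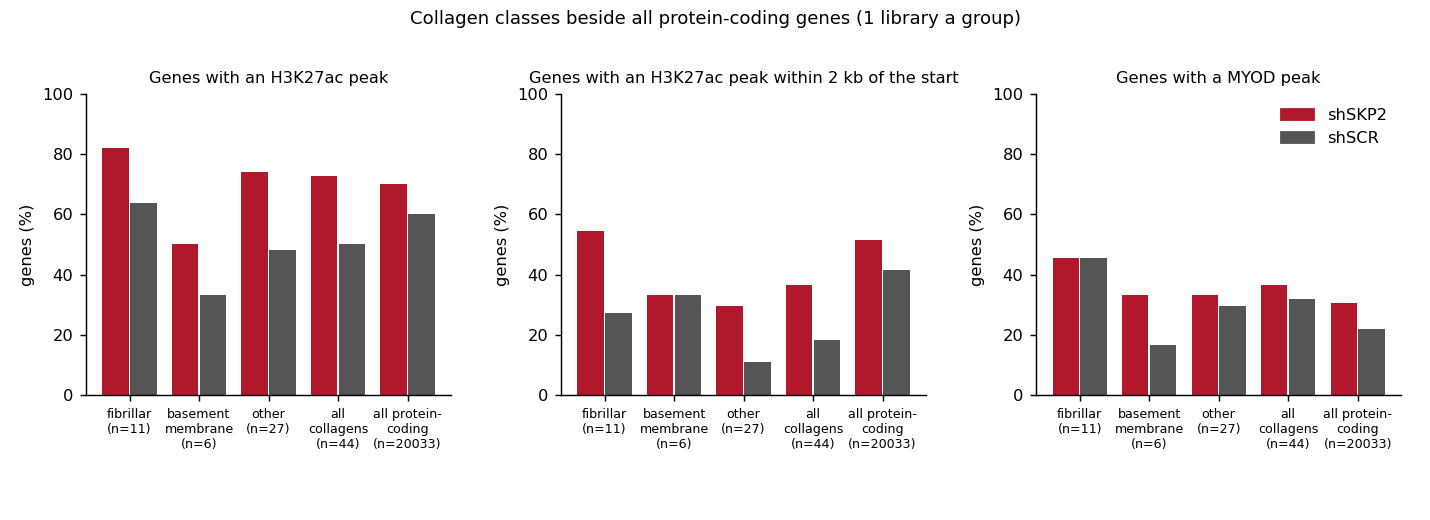
Percentage of genes with an H3K27ac peak in the domain (left), an H3K27ac peak within 2 kb of the start site (middle) and a MYOD peak in the domain (right), for each collagen class, all 44 collagens and all 20033 protein-coding genes, with shSKP2 (red) left of shSCR (grey). Collagens were below all protein-coding genes for start-site H3K27ac in both arms, 36.4% against 51.3% in shSKP2 cells and 18.2% against 41.5% in shSCR cells.

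Fewer collagens than genes in general carried H3K27ac at their start site. A peak touched the 2 kb on each side of the canonical start at 16 collagens in shSKP2 cells (36.4%) and 8 in shSCR cells (18.2%), against 51.3% and 41.5% of all protein-coding genes. The 8 with a start-site peak in both arms were COL3A1, COL5A1, COL5A2, COL4A1, COL4A2, COL8A1, COL9A2 and COL26A1. The 8 with a start-site peak in shSKP2 cells alone were COL1A1, COL1A2, COL24A1, COL6A1, COL12A1, COL14A1, COL18A1 and COL19A1, and 0 had one in shSCR cells alone. Over all protein-coding genes 40.7% had a start-site peak in both arms, 10.7% in shSKP2 cells alone and 0.804% in shSCR cells alone. A pair of the calls in shSKP2 cells alone rested on the edge of a peak with its summit outside the window. At COL1A2 the summit was 2.80 kb from the start, 42 bp of the peak reached the window, and shSCR cells had an overlapping peak that stopped short of it. At COL12A1 the summit was 2.15 kb away, 164 bp reached the window, and no shSCR peak overlapped it. COL9A2, called in both arms, also had its summits outside, at 2.04 kb in shSKP2 cells and 2.05 kb in shSCR cells. By summit position, 15 of the 159 shSKP2 H3K27ac peaks and 7 of the 99 shSCR peaks lay within 2 kb of a collagen start, while 124 and 76 lay inside collagen genes further from the start. Another 7 and 5 lay within 2 kb of the start of a different gene.

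Of the H3K27ac peaks at collagens, 82 of 159 shSKP2 peaks had no overlapping shSCR peak (51.6%, 43.9% to 59.2%), and 19 of 99 shSCR peaks had no overlapping shSKP2 peak (19.2%, 12.6% to 28.0%). The shares over all H3K27ac peaks were 48.6% and 13.6%. With lists of equal length the collagen shares were 28.2% and 35.4%, so the excess of peaks found in shSKP2 cells alone was not seen at that length. By class, peaks without a counterpart made up 43.5% (30.2% to 57.8%) of shSKP2 peaks and 9.68% (3.35% to 24.9%) of shSCR peaks at fibrillar collagens, 61.5% (35.5% to 82.3%) and 42.9% (15.8% to 75.0%) at basement membrane collagens, and 54.0% (44.3% to 63.4%) and 21.3% (12.9% to 33.1%) at the others. The class intervals overlapped in both arms. Peaks found in shSKP2 cells alone were narrower and closer to the calling threshold than those found in both arms, with a median width of 330 bp against 593 bp and a median −log10 p of 7.12 against 12.6. Where both arms had a peak, its fold enrichment was higher in shSKP2 cells at 59 of 77 collagen peaks (76.6%), with a median ratio of 1.12. Over all 19780 such peaks these values were 75.2% and 1.17. The shSKP2 peak was the wider at 62 of the 77 (80.5%), against 84.0% of all such peaks.

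Among the fibrillar collagens, COL1A1 and COL1A2 encode the chains of type I collagen, the main collagen of tendon and bone. COL1A1 had 2.19 kb of H3K27ac cover in 5 peaks in shSKP2 cells and 1.40 kb in 4 peaks in shSCR cells. Its start-site peak, chr17:50200391-50200842 in intron 1 with 4.10-fold enrichment, was in the shSKP2 list alone, whereas a peak 8.41 kb upstream of the start was called in both arms at 7.57-fold in shSKP2 cells and 6.36-fold in shSCR cells. COL1A2 had 1.89 kb of cover in shSKP2 cells and 0.214 kb in shSCR cells. The largest contribution was a peak about 2.80 kb upstream of the start, 1048 bp wide at 6.08-fold in shSKP2 cells and 214 bp wide at 3.98-fold in shSCR cells.

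COL3A1 encodes type III collagen, which forms thin fibrils with type I collagen in pliable tissue and in the connective tissue of muscle. It had 4 H3K27ac peaks in each arm with a cover of 2.13 kb in shSKP2 cells and 1.13 kb in shSCR cells. At the start site a single peak of 1022 bp (2.74-fold) in shSKP2 cells lay across a pair of peaks of 310 and 250 bp (2.34-fold and 2.53-fold) in shSCR cells. The expected background under these COL3A1 peaks was high in both lists, at 12.9 times the lowest value of the shSKP2 list and 9.79 times that of the shSCR list, against a median of 3.09 and 2.94 over all peaks. Its part in the modest fold values was not tested.

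COL5A1 and COL5A2 encode chains of type V collagen, which starts and limits the growth of type I fibrils. COL5A2 held the largest cover of the fibrillar class in both arms, 12.5 kb in 21 peaks in shSKP2 cells and 7.98 kb in 14 peaks in shSCR cells. Its strongest H3K27ac peak lay 31.0 kb upstream of the canonical start but inside the annotated gene, at 7.17-fold in shSKP2 cells and 6.58-fold in shSCR cells. Expected background at COL5A2 was also high, 9.21 and 7.12 times the lowest value. COL5A1 went the other way, with 1.62 kb in 3 peaks in shSKP2 cells and 2.08 kb in 5 peaks in shSCR cells. The 3 shSKP2 peaks all had a counterpart, and 2 shSCR peaks, in intron 4 (3.64-fold) and intron 45 (2.73-fold), did not. COL5A1 and COL5A2 therefore differed in the direction of cover. All kept COL5A1 peaks had a higher fold over background in shSKP2 cells (3.53, 5.86 and 5.58 against 3.41, 5.02 and 3.96). Expected background at COL5A1 was lower in shSKP2 cells, at 2.90 times the lowest value of that list against 3.76 times in shSCR cells. Its part in these folds was not tested.

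COL11A1 and COL11A2 encode chains of cartilage type XI collagen. COL11A1 had 0.670 kb of cover in shSKP2 cells and 0 in shSCR cells, from a pair of peaks deep in the gene, the stronger in intron 57 at 7.24-fold. The COL11A2 cover, 1.29 kb and 1.08 kb, came from peaks at the start sites of the neighbouring genes RXRB and SLC39A7 and not from COL11A2 itself. COL24A1 and COL27A1 are fibrillar collagens expressed in developing bone and cartilage. COL24A1 had 1.33 kb of cover in shSKP2 cells against 0.180 kb in shSCR cells, including a start-site peak in its 5′ UTR (exon 1, 4.37-fold) found in shSKP2 cells alone. COL27A1 had 1.62 kb in 5 peaks in shSKP2 cells and no H3K27ac peak in shSCR cells, and those peaks lay in introns at 3.33-fold to 4.69-fold.

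Type IV collagen genes lie in head-to-head pairs that share a promoter region. COL4A1 and COL4A2 encode the chains found in nearly all basement membranes, including that of the muscle fibre. COL4A2 had 4.01 kb of cover in 9 peaks in shSKP2 cells and 2.21 kb in 7 peaks in shSCR cells, and COL4A1 had 1.52 kb in 3 peaks and 0.218 kb in 1 peak. Their 5′ ends overlap in the annotation, and a peak was called close to this overlap in each arm, but not at the same position. In shSKP2 cells the peak was chr13:110305806-110306352, 1.27 kb inside COL4A1 (3.34-fold), and in shSCR cells it was chr13:110308693-110308910, 1.46 kb inside COL4A2 (3.36-fold). COL4A3, whose product forms part of the kidney, lung and cochlear basement membrane, had 1.72 kb of cover in shSKP2 cells and 0 in shSCR cells. A peak in its intron 1 (chr2:227187605-227189289, 1685 bp, 5.63-fold) supplied most of it, and the rest was the edge of a peak at the start of MFF, a gene for a mitochondrial fission factor.

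The remaining collagens included the loci with the largest differences. COL19A1 encodes a fibril-associated (FACIT) collagen described in basement membrane zones of several tissues. It had 12.8 kb of H3K27ac cover in 24 peaks in shSKP2 cells and 4.46 kb in 12 peaks in shSCR cells, and its difference of 8.32 kb exceeded that of every other collagen. The peaks fell into separate stretches. From just upstream of the gene to 127 kb past its start there were 11 shSKP2 peaks, none with a counterpart, against a single shSCR peak in intron 10. From 227 kb to 314 kb past the start, 9 of 13 shSKP2 peaks and 9 of 11 shSCR peaks had a counterpart, and the strongest shSCR peak there (4.67-fold, intron 40) was weaker in shSKP2 cells (3.15-fold). The shSKP2 peaks at the start of COL19A1 (2.39-fold and 2.33-fold) also lie within LMBRD1, a gene for a lysosomal cobalamin transporter. Expected background at COL19A1 was 7.70 and 6.14 times the lowest value.

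COL25A1 encodes a transmembrane collagen needed for motor innervation of muscle in mice. It had 11.8 kb in 25 peaks in shSKP2 cells and 6.33 kb in 15 peaks in shSCR cells, and no peak within 2 kb of its canonical start in either arm. Of its shSKP2 peaks, 14 had no shSCR counterpart, while 3 shSCR peaks had no shSKP2 counterpart. COL26A1, an unclassified collagen, had 7.64 kb in 11 peaks in shSKP2 cells and 4.01 kb in 9 peaks in shSCR cells, all 9 of which had a shSKP2 counterpart. Its start-site peak was 1698 bp wide at 5.15-fold in shSKP2 cells and 467 bp wide at 3.52-fold in shSCR cells.

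COL15A1 and COL18A1 encode multiplexins, collagens of the basement membrane zone that release the antiangiogenic fragments restin and endostatin. COL15A1, whose loss causes a mild myopathy in mice, was the second collagen with less cover, 5.13 kb in 11 peaks in shSKP2 cells and 5.47 kb in 13 peaks in shSCR cells. The widest gap was in intron 23, where a peak of 1287 bp (3.71-fold) in shSCR cells corresponded to one of 266 bp (4.10-fold) in shSKP2 cells. At 7 of its 8 shared peaks the fold over background was higher in shSKP2 cells, so cover and fold went in opposite directions at this gene. Its median expected background differed between the arms, at 4.62 fragments in shSKP2 cells and 9.51 in shSCR cells. These were 2.87 and 5.44 times the lowest value of each list. The part of background in the higher folds was not tested. COL18A1 had a single shSKP2 peak 1.21 kb from its start (4.96-fold) and none in shSCR cells.

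**Figure D3:**
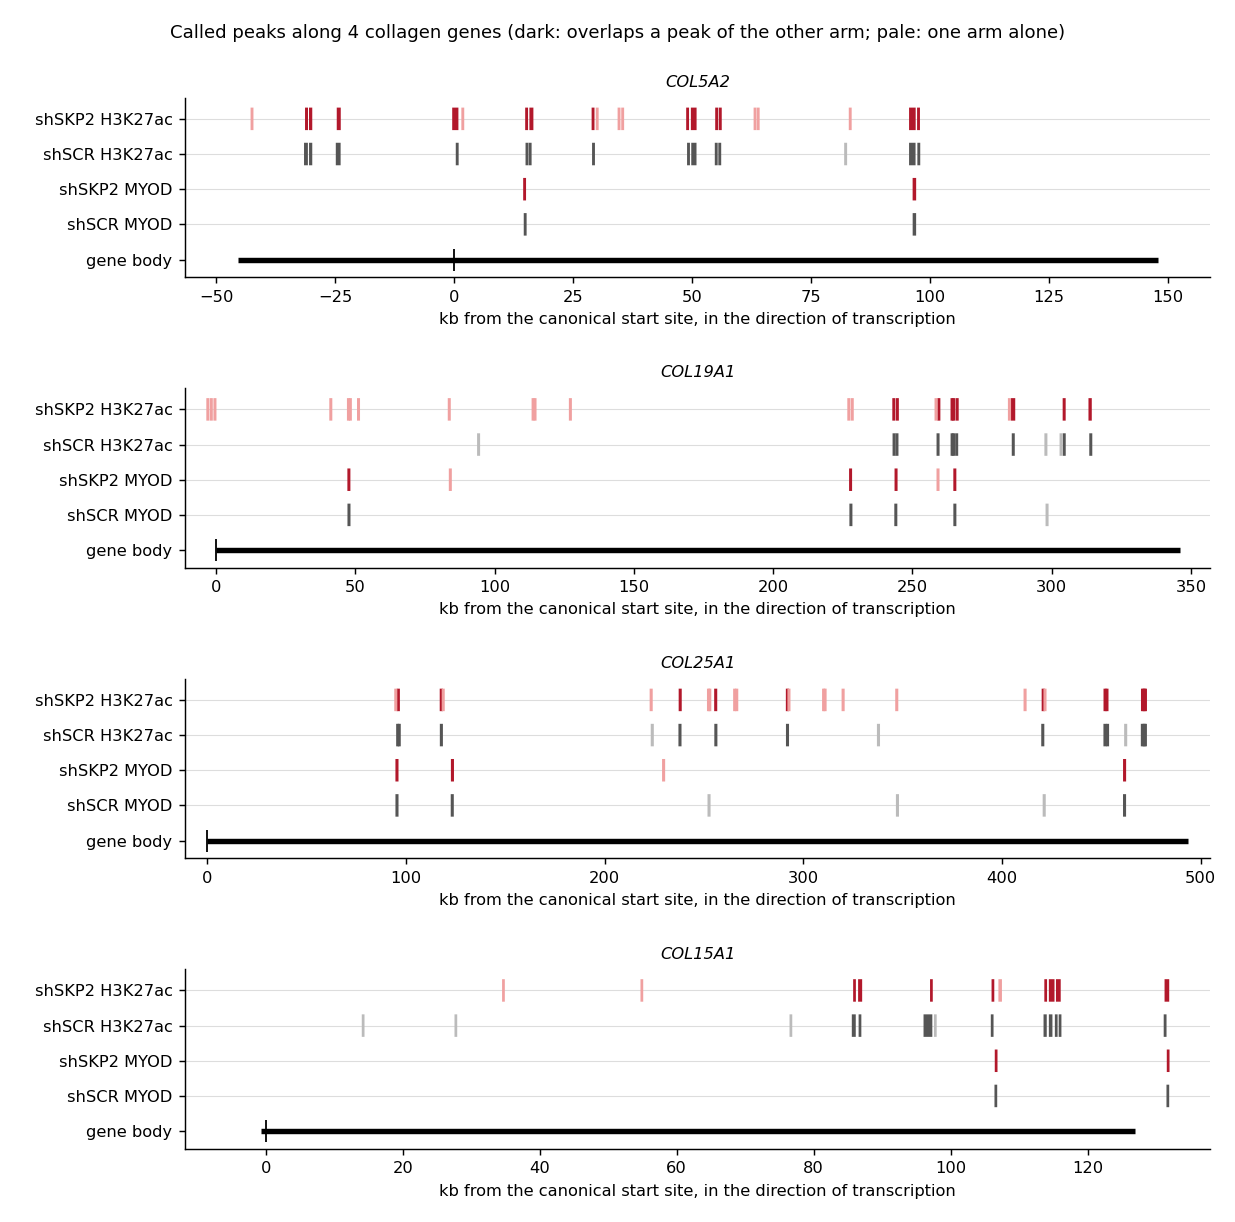
Called peaks along COL5A2, COL19A1, COL25A1 and COL15A1, by distance in kilobases from the canonical start in the direction of transcription, with shSKP2 rows (red) above shSCR rows (grey) for each antibody. Dark ticks overlap a peak of the other arm and pale ticks do not, narrow peaks are drawn at a minimum width, and the early introns of COL19A1 hold pale shSKP2 H3K27ac ticks with a single shSCR tick.

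COL6A1, COL6A3 and COL6A6 encode chains of type VI collagen, the beaded filament that links muscle fibres to their matrix, and mutations in COL6A1 and COL6A3 cause congenital myopathies. COL6A1 had 2.49 kb of cover in shSKP2 cells and 1.37 kb in shSCR cells, including start-site peaks of 4.94-fold and 3.90-fold in shSKP2 cells alone. COL6A3 and COL6A6 each had 1 peak in shSKP2 cells (4.08-fold and 5.94-fold) and none in shSCR cells. COL6A2 and COL6A5 had no peak in any list.

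COL12A1 and COL14A1 encode FACIT collagens of the fibril surface. COL14A1 had 2.25 kb in 6 peaks in shSKP2 cells and 0.743 kb in 2 peaks in shSCR cells, with a start-site peak of 3.31-fold in shSKP2 cells alone. COL12A1 had 0.582 kb and 0.382 kb, and its H3K27ac peaks in the arms did not overlap. COL8A1, a short-chain collagen of vessel walls, differed little, with 0.641 kb in shSKP2 cells and 0.589 kb in shSCR cells. At COL7A1 (anchoring fibrils), COL8A2, COL16A1 and COL23A1, most of the shSKP2 cover lay at the start of a neighbour, namely PFKFB4, ADPRS, PEF1 and PHYKPL. COL9A2, a FACIT collagen of cartilage, had 1.12 kb in shSKP2 cells and 0.548 kb in shSCR cells from 1 peak in each arm.

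MYOD peaks were found at 16 collagens in shSKP2 cells (36.4%) and at 14 in shSCR cells (31.8%), against 30.6% and 21.8% of all protein-coding genes. Among domains of 50 to 250 kb the collagen counts were 12 and 8 of 28, against 35.1% and 25.2% of genes of that size, that is 42.9% and 28.6% of the collagens in that range. A MYOD peak was present in both arms at COL1A1, COL5A1, COL5A2, COL27A1, COL8A2 (at the start of its neighbour ADPRS), COL12A1, COL15A1, COL19A1, COL20A1, COL25A1 and COL26A1. COL3A1, COL4A3, COL4A4, COL7A1 and COL16A1 had one in shSKP2 cells alone, and COL24A1, COL4A2 and COL14A1 in shSCR cells alone. These 11, 5 and 3 of 44 collagens compare with 17.5%, 13.1% and 4.39% of all protein-coding genes. By class, MYOD peaks were found in shSKP2 and shSCR cells at 45.5% and 45.5% of fibrillar, 33.3% and 16.7% of basement membrane and 33.3% and 29.6% of other collagens. Of the peaks, 11 of 29 in shSKP2 cells had no shSCR counterpart (37.9%, 22.7% to 56.0%) and 10 of 28 in shSCR cells had no shSKP2 counterpart (35.7%, 20.7% to 54.2%), against 55.9% and 35.9% of all MYOD peaks.

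Merged across the arms, the MYOD peaks made 39 sites, 18 of them called in both arms, 11 in shSKP2 cells alone and 10 in shSCR cells alone. The strongest in shSKP2 cells lay in intron 1 of COL5A1, chr9:134645039-134645530, with 11.1-fold enrichment in shSKP2 cells and 11.1-fold in shSCR cells. A site in intron 4 of COL19A1, chr6:69914147-69914441, had 10.5-fold and 11.9-fold. The intron 30 site of COL15A1, chr9:99050370-99050691, had 9.14-fold and 9.22-fold. These sites differed little between the arms.

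Wider gaps were seen at other sites called in both arms. In COL19A1 intron 15 the fold was 9.13 in shSKP2 cells and 6.60 in shSCR cells, and in COL5A2 intron 12 it was 8.40 and 6.94. COL20A1, a FACIT collagen with no H3K27ac peak in either arm, had a site in coding exon 16 with 7.90-fold in shSKP2 cells and 10.4-fold in shSCR cells. The first of the COL26A1 sites, in intron 1, had 7.69-fold and 9.07-fold. Over the 18 sites called in both arms the median ratio of shSKP2 to shSCR fold was 0.996 (range 0.750 to 1.38), with 8 higher and 9 lower in shSKP2 cells, against a median of 1.04 over 3722 such sites in all. MYOD enrichment at shared collagen sites thus had no common direction. H3K27ac cover, a different measure, was larger in shSKP2 cells at the genes of these sites except COL5A1, COL15A1 and COL20A1. Over all protein-coding genes 66.7% had more cover.

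A MYOD summit lay within 2 kb of a collagen start only at COL12A1, in the 5′ UTR of exon 1, with 6.66-fold in shSKP2 cells and 6.60-fold in shSCR cells. The other sites lay mostly in introns. Of sites called in a single arm, the strongest in shSKP2 cells was in COL4A3 intron 1 (chr2:227228118-227228307, 6.91-fold), which lay 38.8 kb from the nearest shSKP2 H3K27ac peak. The strongest in shSCR cells were in COL25A1 intron 4 (chr4:109049928-109050210, 8.33-fold) and COL4A2 intron 4 (chr13:110387752-110388045, 7.13-fold). COL1A1 had MYOD peaks in both arms, but none of them overlapped. Its shSKP2 peaks lay upstream (4.08-fold) and downstream (5.14-fold) of the gene, and its shSCR peak lay downstream at another position (5.17-fold). At COL3A1, the shSKP2 MYOD peak downstream of the gene (5.31-fold) coincided with an H3K27ac peak found in shSKP2 cells alone (3.72-fold).

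**Figure D4:**
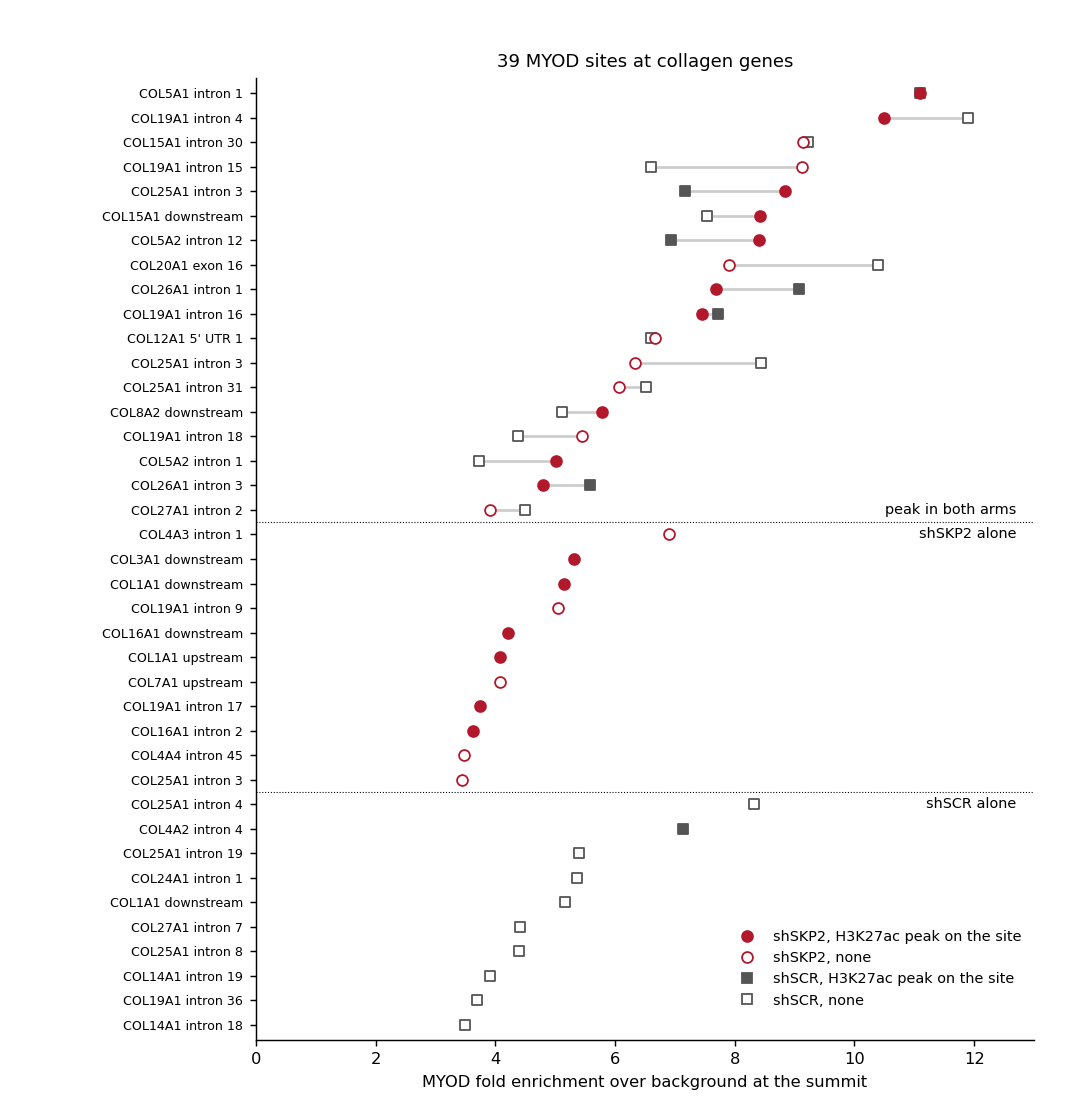
Fold enrichment of MYOD at the summit for each of the 39 sites at collagen genes, with shSKP2 as circles and shSCR as squares, grouped by the arm in which the site was called, and filled where an H3K27ac peak of the same arm touched the site. Among the 18 sites called in both arms, 8 symbols lay further right for shSKP2 and 9 further left, and 10 circles but 6 squares were filled.

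H3K27ac touched 20 of the 39 MYOD sites in shSKP2 cells (51.3%, 36.2% to 66.1%) and 10 in shSCR cells (25.6%, 14.6% to 41.1%). Over all 10538 MYOD sites the shares were 51.7% and 34.0%. These sites were merged across the arms, so some had no MYOD peak in the arm counted. H3K27ac in shSKP2 and shSCR cells touched 10 and 6 of the 18 collagen sites with MYOD in both arms. It touched 6 and 3 of the 11 with MYOD in shSKP2 cells alone, and 4 and 1 of the 10 in shSCR cells alone. Over all MYOD sites these shares were 68.2% and 49.0%, 41.3% and 24.0%, and 45.6% and 30.2%. At collagens, 10 sites were acetylated in both arms, 10 in shSKP2 cells alone and 0 in shSCR cells alone, and over all sites the counts in a single arm were 2050 and 190. The 10 sites acetylated in shSKP2 cells alone lay in the domains of COL1A1, COL3A1, COL5A2, COL24A1, COL8A2, COL14A1, COL15A1, COL16A1, COL19A1 and COL25A1. Those of COL1A1, COL3A1, COL8A2 and COL15A1 lay downstream of the gene, and that of COL8A2 lay at the start of ADPRS. Those of COL14A1, COL24A1 and COL25A1 had a MYOD peak in shSCR cells alone. At COL19A1 intron 4, where MYOD was among the strongest in both arms, the nearest shSCR H3K27ac peak lay 46.3 kb away. In contrast, at COL5A2 intron 1, COL1A1, COL14A1, COL15A1 and COL24A1 a shSCR H3K27ac peak ended within 0.199 kb of the site, so the call turned on the width of the peak. Within 1 kb of an H3K27ac peak there were 29 of 39 sites in shSKP2 cells and 22 in shSCR cells. The same count was not made over all MYOD sites, so these values cannot be called particular to collagens.

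The genes that modify, export, cleave, cross-link, bind and degrade collagen were examined beside the collagens as 79 listed partners. More H3K27ac cover in shSKP2 cells was found at 53 (67.1%) and less at 6 (7.59%), beside 66.7% and 3.92% of all protein-coding genes. MYOD peaks were present at 33 partners in shSKP2 cells and 27 in shSCR cells (41.8% and 34.2%), beside 30.6% and 21.8% of all protein-coding genes. The share with more cover was thus within a percentage point of that of all genes, and the roles are given in turn.

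Of 14 genes for prolyl and lysyl hydroxylation and glycosylation, the steps that stabilise the triple helix and prepare its cross-links, 13 had more cover and 1 had less. The largest differences were at COLGALT2, a collagen galactosyltransferase (2.85 kb in shSKP2 cells and 0.737 kb in shSCR cells), PLOD2, a lysyl hydroxylase (2.90 kb and 1.04 kb), and P4HA2, a prolyl hydroxylase subunit (3.61 kb and 1.99 kb). P4HA3 had 0.744 kb and 0.987 kb. Of 9 genes for folding and export 7 had more and 2 less. SERPINH1, the collagen chaperone HSP47, had 2.50 kb and 1.25 kb, HSPA5 1.88 kb and 0.915 kb, and KLHL12, which enlarges the vesicles that carry procollagen, 2.21 kb and 1.45 kb. MIA3, the procollagen export receptor TANGO1, had 1.06 kb in shSKP2 cells and 1.73 kb in shSCR cells, and CREB3L1 had 0.239 kb and 0.243 kb.

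Of 10 genes for procollagen cleavage, 5 had more cover and 0 less. ADAMTS14 had 2.06 kb in shSKP2 cells and 0.545 kb in shSCR cells, BMP1 had 1.56 kb and 0.408 kb, and ADAMTS2 had 1.24 kb and 0.399 kb. ADAMTS2 and ADAMTS14, proteinases that remove the amino-terminal propeptide of fibrillar collagens, each had 3 MYOD peaks in shSKP2 cells and none in shSCR cells, from 5.78-fold to 8.17-fold at ADAMTS2 and from 4.91-fold to 6.60-fold at ADAMTS14. Among 12 genes for cross-linking and fibril assembly 8 had more and 1 less. The lysyl oxidases led, with LOXL2 at 6.83 kb and 3.65 kb, LOXL3 at 3.15 kb and 1.76 kb, and LOX at 0.591 kb and 0, all of the LOX cover lying in a pair of start-site peaks. FN1, the gene for fibronectin, had 1.19 kb and 1.31 kb.

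Of 11 genes for degradation and its inhibition 5 had more cover and 0 less. TIMP2, an inhibitor of matrix metalloproteinases, had 5.35 kb in shSKP2 cells and 2.65 kb in shSCR cells, MMP14, a membrane-bound collagenase, 2.54 kb and 0.464 kb, and MRC2, a receptor that takes up collagen fragments, 1.06 kb and 0.326 kb. Of 10 collagen receptors 5 had more and 1 less. DDR2, the fibrillar collagen receptor tyrosine kinase, had 5.37 kb and 3.43 kb, ITGA1 3.66 kb and 1.74 kb, ITGA10 2.22 kb and 0.936 kb, and ITGA11 0.457 kb and 0.935 kb. ITGA11, an integrin chain for type I collagen, gained MYOD calls while its cover was smaller, with 3 MYOD peaks in shSKP2 cells (6.58-fold, 7.24-fold and 3.55-fold) and none in shSCR cells.

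Of 13 laminin and basement membrane partners 10 had more cover and 1 less. LAMA2, the laminin chain of the muscle fibre whose loss causes congenital muscular dystrophy, had 7.99 kb in shSKP2 cells and 4.08 kb in shSCR cells, LAMC1 6.98 kb and 3.70 kb, and AGRN, which clusters acetylcholine receptors at the neuromuscular junction, 3.31 kb and 1.21 kb. NID1, a linker of laminin and type IV collagen, had 0 and 0.335 kb. Summed over these 13 genes, cover was 34.2 kb in shSKP2 cells and 17.6 kb in shSCR cells, a ratio of 1.94. This ratio was 2.98 for the type IV collagens and 1.96 over all protein-coding genes.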

How the data were processed

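The authors aligned reads to GRCh38 (hg38) with BWA 0.7.17, called narrow peaks with MACS3 against input and removed exclusion-list regions. Chromatin of Drosophila (dm3) was spiked in, and whether it scaled the peak calls was not stated. Per the methods peaks were called with duplicates kept at a p-value equal to a −log10 p of 5, but 2.41% to 4.13% of the deposited peaks had a −log10 p under 5. Each deposited list gave a peak's position, an integer score (used only to shorten lists), its fold enrichment over expected background (a ratio), −log10 p and summit offset, as the authors' caller wrote them. Read depth was not used here. Expected background was computed from fold and p.

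From these, overlaps, cover and shares with Wilson intervals were computed in Python 3.11.15 (scipy 1.17.1, pysam 0.24.0) with GENCODE 44, and code was tested on simulated data. Canonical transcripts gave start sites, exons and introns. Members and gene lists were chosen with earlier results of these data known. Named collagens were those with a MYOD peak, per class the 4 with most cover, the 2 largest rises and 2 largest falls, and those with a start-site peak in one arm alone. Of each partner role the 3 largest rises and 2 largest falls were named. Others are named where a count lists its genes, chosen after their values were seen. Alternatives changed the flank (0 or 50 kb), p threshold, list length, overlap rule, domain size and merging, class limits and members.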

Additional observations from a re-analysis of the deposited data

Results flagged for a closer look

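Both H3K27ac lists held 1 peak on a contig named SV40, outside the human chromosomes and outside every comparison above. Its fold enrichment was 21.7 in shSKP2 cells (−log10 p 79.4) and 5.82 in shSCR cells (−log10 p 10.1). The MYOD lists held none, and no collagen value used these peaks.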

How the results depend on the processing

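Of 89 alternatives, 61 stayed within 1.5 times the reported count or median, or within the interval of the reported share, 28 moved further, and 0 changed sign. With both lists of an antibody shortened to equal length by score, 18 collagens had more cover in shSKP2 cells and 8 had less (57.4% and 9.09% of all genes), the median differences were 0.210 kb for fibrillar, 0 for basement membrane and 0 for other collagens, and peaks without a counterpart were 28.2% of shSKP2 and 35.4% of shSCR peaks. Domains of 50 to 250 kb gave 18 collagens with more cover and, in shSCR cells, 8 with a MYOD peak, out of 28. With peaks under a −log10 p of 10 left out, the medians were 0.383, 0 and 0 kb, the shSKP2 share was 60.3%, and 20 collagens had more cover (45.5%, against 58.7% of all genes). Gene bodies alone gave 0.462 kb for fibrillar and 0.265 kb for other collagens. Flanks of 50 kb gave 1.51, 2.01 and 0.985 kb in the 3 classes and 0 collagens with less cover. Adding COL7A1, COL15A1 and COL18A1 to the basement membrane class gave 0.266 kb. With 50% reciprocal overlap, peaks without a counterpart were 67.3% of shSKP2 and 47.5% of shSCR peaks, and H3K27ac met 15.4% and 7.69% of MYOD sites. With peaks within 1000 bp taken as shared these were 40.9%, 12.1%, 74.4% and 56.4%. Settings chosen after seeing the data, which left out COL5A2, COL19A1 and COL25A1, narrowed the E-box window or concerned the partner genes, stayed within these limits.

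No paired analysis was possible because each group held 1 library. One hairpin and 1 library a group allow no statement beyond these libraries. Called peaks are thresholded, so a peak missing from a list is not a lack of signal, and cover depends on peak width. No expression was measured here, and peaks were given to genes by position alone.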

Other observations

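Several partner genes, most of them outside the named ones, differed in MYOD calls. MEP1A, which encodes a meprin subunit, had a MYOD peak of 8.63-fold in shSKP2 cells and none in shSCR cells, with no H3K27ac peak in either arm. DCN, which encodes the fibril-binding proteoglycan decorin, had a MYOD peak of 8.06-fold in shSKP2 cells and none in shSCR cells, also without H3K27ac in either arm. PXDN, the peroxidase that cross-links type IV collagen, had a MYOD peak of 8.46-fold in shSKP2 cells and none in shSCR cells. LAMA5, a laminin chain gene, had 5 MYOD peaks in shSKP2 cells (3.24-fold to 6.12-fold) and 1 in shSCR cells (5.90-fold). LAMC1, another laminin chain gene, had 1 in shSKP2 cells (4.00-fold) and 3 in shSCR cells (3.72-fold to 8.01-fold), so these genes did not all differ in the same direction. These genes were chosen after their values were seen, and none of the differences was tested.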
